A study of Mus musculus with 4 samples.

Results

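Immediate early response genes are a group of 10 genes, *Fos*, *Fosb*, *Jun*, *Junb*, *Jund*, *Egr1*, *Egr2*, *Ier2*, *Atf3* and *Dusp1*, whose probes were found through the RefSeq accession printed with each spot. All 10 were represented, by 13 probes, among 22911 genes and 56605 probes of the array. *Fosb*, *Junb* and *Jund* had 2 probes each and the other members 1. The RNA came from *Bcr-Abl*+ tumors grown under the skin of mice that were either Wt or *Sipa1*-/- (sipa1 KO in the labels, strain C57BL/6Ncr, 8 weeks of age), collected 12 days after GFP+ *Bcr-Abl*+ hematopoietic progenitor cells of Wt origin had been injected in Matrigel. The mice lacked *Sipa1*, which encodes a Rap1 GTPase-activating protein, in all host cells, so that the genotype is that of the sorted cells and of the tumor environment together. Mesenchymal stroma cells (MSCs) were sorted as GFP-, CD45-, Ter119- and CD31- cells and CD8+ T cells as GFP-, TCRb+ and CD8+ cells. Tumors of both genotypes were first digested with collagenase and DNase for 60 min at 37°C. Each of the 4 conditions had 1 array, and the series description names 5 mice per genotype without saying whether their RNA was pooled. The values are therefore given without a test, since no difference could be checked on replicates.

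Immediate early genes are transcribed within minutes of a growth factor, antigen receptor or stress signal, without new protein synthesis, because the factors that bind their promoters are already present and are switched on by phosphorylation. MAP kinases activate SRF with its Elk partners on the CArG box and CREB on the cAMP response element (CRE). *Fos* and *Jun* family proteins pair through their leucine zippers as AP-1, *Egr* proteins are zinc-finger activators, *Atf3* is a stress-induced factor that binds the same sites as CREB and AP-1, and *Dusp1* is a phosphatase that turns MAP kinases off. Their transcripts are short-lived, and enzymatic dissociation of tissue is known to raise them in many cell types.

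Promoter windows of RefSeq (build GRCm38.p6, 250 bases before to 50 after the transcript start) were matched for 8 of the 10 members, all but *Egr1* and *Ier2*, with 5 windows for *Egr2*. The 250 bases before the start are shown for *Fos*, *Fosb*, *Egr2* and *Dusp1*. *Fos* and *Fosb* are the pair of *Fos* genes, *Egr2* is shown at a start with a CArG box, and *Dusp1* is the one with a full CRE. In that order they lie at chr12:85473640-85473889 on the plus strand, chr7:19310046-19310295 on the minus strand, chr10:67537619-67537868 on the plus strand and chr17:26508473-26508722 on the minus strand. Each reads 5′ to 3′ along the gene. Capitals mark the CRE core TGACG on either strand (CGTCA on the other), the CArG box and, on the gene's strand, the TATA box TATAAA.
Fos: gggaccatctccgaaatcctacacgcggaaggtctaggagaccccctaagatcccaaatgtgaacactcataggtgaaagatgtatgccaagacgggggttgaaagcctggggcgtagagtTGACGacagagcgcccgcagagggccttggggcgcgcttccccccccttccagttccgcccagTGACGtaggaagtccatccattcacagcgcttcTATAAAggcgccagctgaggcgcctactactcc
Fosb: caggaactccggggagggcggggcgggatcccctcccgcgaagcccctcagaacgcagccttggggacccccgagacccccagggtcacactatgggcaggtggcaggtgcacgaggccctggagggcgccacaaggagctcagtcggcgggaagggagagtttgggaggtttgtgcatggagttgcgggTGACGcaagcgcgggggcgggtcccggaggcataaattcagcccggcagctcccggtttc
Egr2: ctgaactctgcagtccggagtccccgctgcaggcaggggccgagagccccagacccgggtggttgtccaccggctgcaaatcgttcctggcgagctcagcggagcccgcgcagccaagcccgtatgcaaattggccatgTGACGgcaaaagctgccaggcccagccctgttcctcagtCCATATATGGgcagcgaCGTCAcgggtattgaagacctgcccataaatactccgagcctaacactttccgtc
Dusp1: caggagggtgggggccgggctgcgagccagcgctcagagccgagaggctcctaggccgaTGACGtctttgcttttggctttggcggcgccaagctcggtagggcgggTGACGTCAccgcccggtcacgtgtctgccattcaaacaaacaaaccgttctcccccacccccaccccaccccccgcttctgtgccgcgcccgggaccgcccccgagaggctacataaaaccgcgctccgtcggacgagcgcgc

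The core TGACG, searched on both strands, was found in a window of 6 of the 8 members (*Fos*, *Fosb*, *Junb*, *Egr2*, *Atf3* and *Dusp1*), and 23.1% of the 27025 genes with windows held it. In *Fos* it started 129 and 66 bases before the transcript start, and in *Fosb* 60 bases before it. The full CRE TGACGTCA, of which TGACG is the first part, was found only in *Dusp1* among the 8, 143 bases before the start, and in 2.03% of genes. A CArG box was found only in *Egr2*, where 4 of its 5 windows held one, and in 1.81% of genes. The *Egr2* windows with CCATATATGG overlap and hold the same box, and the remaining box was CCTTTTTTGG. TATAAA was present in *Fos*, 33 bases before the start, and in *Junb*, at the annotated start itself, against 9.77% of genes. The EGR site GCGNGGGCG, on both strands, was found in *Fosb* alone, against 6.27% of genes. The AP-1 site TGANTCA was found in 0 of the 8 members and in 8.97% of genes. These are descriptions of letters in short windows, and distal elements were not searched.

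Signals are given as log2 values relative to the 75th percentile of each array, so that 0 is the level below which 75% of the probes of that array lie. No spot was saturated, and between 59.7% and 64.3% of non-control spots passed all the flags the methods ask for, namely a signal that is positive, significant and well above background, no saturation, and even pixels in the spot and its surround. Levels of different probes are not compared, because probes differ in how strongly they bind. For probes printed on at least 10 spots, spots on the same array scattered with a median SD of 0.040 to 0.045 (log2), a measure of printing and reading noise that leaves out the spread between mice. Each member probe had a single spot, for which the scanner software's own error estimate was 10% of the signal in the median and 26.6% at most. *Sipa1* itself checked the labels. In MSCs its 2 probes read 3.05 and 5.03 for Wt, against 1.46 and 3.78 for *Sipa1*-/-. In CD8+ T cells they read 3.43 and 5.40 for Wt, against 1.39 and 3.73 for *Sipa1*-/-. Both probes were thus lower on the *Sipa1*-/- arrays but still above 0 there, and the source of the remaining signal was not tested.

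The markers of the sorted cells were as labelled, with RNA of other cells on every array. Summed over the list and in multiples of the 75th percentile, 10 fibroblast and mesenchymal markers stood at 978 and 1565 on the Wt and *Sipa1*-/- MSC arrays and at 207 and 302 on the CD8+ T arrays, where *Thy1*, which T cells also express, was the highest of them. The 7 T-cell markers on the array summed to 459 and 465 on the CD8+ T arrays and to 18.2 and 3.30 on the MSC arrays. B-lineage markers, 10 of 10 passing the flags on every array, summed to 684 in Wt and 41.9 in *Sipa1*-/- MSCs. Granulocyte markers, 9 of 9 passing on every array, summed to 733 and 824 on the Wt and *Sipa1*-/- MSC arrays and to 638 and 337 on the CD8+ T arrays.

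All 13 member probes were highest on the *Sipa1*-/- MSC array. Among 29374 probes that passed the flags on all 4 arrays, 27.0% had their highest level there, as did 32.3% of the 13766 genes they stand for. Below that array the members differed in order. *Fos*, *Fosb*, *Jun*, *Egr1* and *Atf3* came next on the Wt MSC array, then on the Wt CD8+ T array, and were lowest on the *Sipa1*-/- CD8+ T array. *Dusp1* was also lowest on the *Sipa1*-/- CD8+ T array, but second on the Wt CD8+ T array. *Junb*, *Ier2*, *Egr2* and *Jund* were lowest on the Wt MSC array. For *Jund*, whose order is that of the probe that passed the flags throughout, the 2 lowest places are within spot noise, and the other probe was lowest on the Wt CD8+ T array. The dim *Fosb* probe was lowest there too. With 1 array each, neighbours in these orders cannot be told apart by replicate spread.

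**Figure D1:**
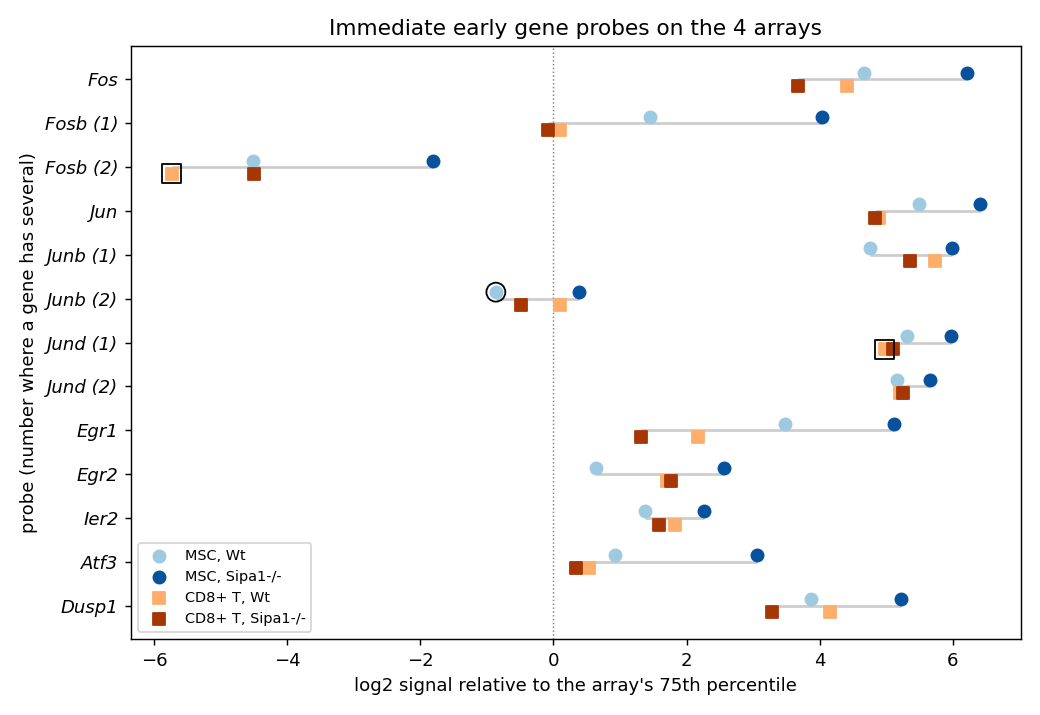
Log2 signal of each of the 13 member probes (rows) relative to the 75th percentile of its array (x axis), with 1 point per array, circles for MSCs and squares for CD8+ T cells, and a black outline where the spot failed a flag. The darkest circle, for *Sipa1*-/- MSCs, is the rightmost point in all 13 rows, and the other 3 arrays change places between rows.

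The first comparison asks how the genotype of the host went with gene expression in tumor MSCs. All 10 immediate early genes were higher on the *Sipa1*-/- than on the Wt MSC array, 7 of them at least 2-fold. Their median log2 ratio was 1.45, or 2.73-fold, against a median of 0.04 over all genes measured. Over the 15298 genes that passed the flags on both arrays, 19.3% were at least 2-fold higher, 11.3% at least 2-fold lower, and 51.8% had a ratio above 0. In RNA of sorted populations, a larger share of cells that express a gene and more RNA per cell cannot be told apart. On the same pair of arrays 10 of 10 B-lineage markers were at least 2-fold lower in *Sipa1*-/- MSCs and 9 of 9 measured fibroblast markers were higher, 5 of them at least 2-fold. Of 9 macrophage markers 8 were higher, 4 of them (44.4%) at least 2-fold, with a median of 0.99, while their summed level was low, at 9.80 for Wt and 13.3 for *Sipa1*-/-. The part of these cell types in the ratios of the members was not tested.

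Among the *Fos* genes, whose proteins need a *Jun* partner to bind DNA, *Fosb* had the largest ratio of the group, except under normexp background correction, where it moved to 1.91 and *Atf3* was first with 2.05. Its brighter probe read 1.46 and 4.03 in Wt and *Sipa1*-/- MSCs, 5.96-fold, and 0.10 and -0.08 in Wt and *Sipa1*-/- CD8+ T cells. The dimmer probe read -4.51 and -1.81 in MSCs, 6.50-fold, and -5.74 and -4.51 in CD8+ T cells. Both probes thus put *Sipa1*-/- MSCs far above the other 3 arrays. The mean *Fosb* ratio of 2.64 in MSCs was exceeded by 0.67% of genes measured there. *Fos*, the founding member of the family, read 4.67 on the Wt and 6.21 on the *Sipa1*-/- MSC array, and 4.41 and 3.68 on the Wt and *Sipa1*-/- CD8+ T arrays. As intensities before scaling these were 11993, 33993, 8813 and 4826. The *Fos* difference between MSC arrays was 2.91-fold, with 9.63% of genes above it.

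The *Jun* genes, which can pair with each other as well as with *Fos* proteins, were bright on all arrays and differed less. *Jun* read 5.49 on the Wt and 6.41 on the *Sipa1*-/- MSC array, 1.89-fold, and 4.89 and 4.83 on the Wt and *Sipa1*-/- CD8+ T arrays. *Junb* read 4.76 and 5.98 on the MSC arrays by its brighter probe, 2.34-fold, and 5.73 and 5.36 on the CD8+ T arrays. Its dimmer probe read -0.87 and 0.38 in MSCs, 2.37-fold, and 0.09 and -0.48 in CD8+ T cells, with the Wt MSC spot left out of the gene mean because its local background was flagged as uneven. The 2 *Junb* probes therefore gave nearly the same ratio. *Jund*, the family member that most cells express steadily, had the smallest ratio of the 10 members, 0.57 as the mean of its probes, except under quantile normalization, where *Ier2* was below it. One *Jund* probe read 5.31 and 5.97 on the MSC arrays and 4.97 and 5.10 on the CD8+ T arrays, the Wt CD8+ T spot again with a flagged background. The other read 5.16 and 5.65 in MSCs and 5.20 and 5.26 in CD8+ T cells, so that all but the *Sipa1*-/- MSC value lie between 5.16 and 5.26.

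*Egr1* and *Egr2* encode zinc-finger factors that SRF induces and that in T cells follow antigen receptor signals. *Egr1* read 3.47 on the Wt and 5.11 on the *Sipa1*-/- MSC array, 3.12-fold, and 2.17 and 1.32 on the Wt and *Sipa1*-/- CD8+ T arrays. The MSC arrays thus both lay above the CD8+ T arrays. *Egr2* read 0.64 and 2.56 in MSCs, 3.79-fold, and 1.70 and 1.77 in CD8+ T cells, where the genotypes were nearly level and lay between the MSC values. *Atf3*, a CREB-family factor induced by stress, read 0.93 and 3.06 in MSCs, 4.38-fold, and 0.53 and 0.34 in CD8+ T cells. Its MSC ratio was exceeded by 2.60% of genes. *Dusp1*, the MAP kinase phosphatase, read 3.87 and 5.22 in MSCs, 2.55-fold, and 4.15 and 3.28 in CD8+ T cells. *Ier2* read 1.37 and 2.26 in MSCs, 1.85-fold, and 1.83 and 1.59 in CD8+ T cells. *Jun*, *Ier2* and *Jund* were the 3 members under 2-fold between the MSC arrays. *Jun* passed it under quantile normalization, which gave 8 members at least 2-fold higher, beside 19.0% of all genes. *Jun* and *Ier2* passed it with the authors' series matrix values. These gave 9 members at least 2-fold higher, beside 24.0% of all genes.

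The second comparison is that of *Sipa1*-/- with Wt CD8+ T cells. There 8 of the 10 members were lower, 2 were higher, and 0 were past 2-fold in either direction. Of 14339 genes, 2.66% were past 2-fold upwards, 1.4% downwards, and 46.1% had a ratio above 0. The median log2 ratio of the members was -0.22 and that of all genes -0.02. *Dusp1* was lowest with a ratio of -0.87, 1.83-fold lower in *Sipa1*-/- cells, followed by *Egr1* with -0.85, *Fos* with -0.73 and *Junb* with -0.48. For *Dusp1*, *Egr1* and *Fos*, between 1.73% and 2.25% of all genes had a lower ratio. The remaining 6 ratios lay between -0.24 for *Ier2* and 0.07 for *Egr2*. Signs close to 0 depended on the scaling. *Jun* (-0.06) turned positive under quantile normalization and with the series matrix values, *Jund* (0.05) and *Egr2* turned negative under median shift, *Jund* also under normexp, and *Fosb* (-0.18) turned positive where its dim probe was counted despite its flag. That *Fosb* probe was not well above background on the Wt CD8+ T array. It read 2.35-fold higher on the *Sipa1*-/- array, opposite to the brighter probe. Its Wt and *Sipa1*-/- spots stood at only 1.58 and 1.77 times local background, and the scanner error of the Wt spot was 26.6%. Neither a lower limit of this fold nor its direction is therefore firm.

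Markers of other cells moved on the same pair of arrays. On the *Sipa1*-/- array 6 of 9 granulocyte markers were at least 2-fold lower, their median ratio being -1.12, and 9 of 10 fibroblast markers were at least 2-fold higher, with a median of 1.68. Of 5 measured erythroid markers 3 were at least 2-fold lower, with a median of -1.09. Of 10 B-lineage markers 3 were at least 2-fold lower, with a median of -0.17. Of 9 macrophage markers 1 was, with a median of 0.12. The 7 T-cell markers had a median ratio of 0.01. The part of granulocyte, fibroblast, erythroid, B-lineage and macrophage RNA in the values of the members was not tested.

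**Figure D2:**
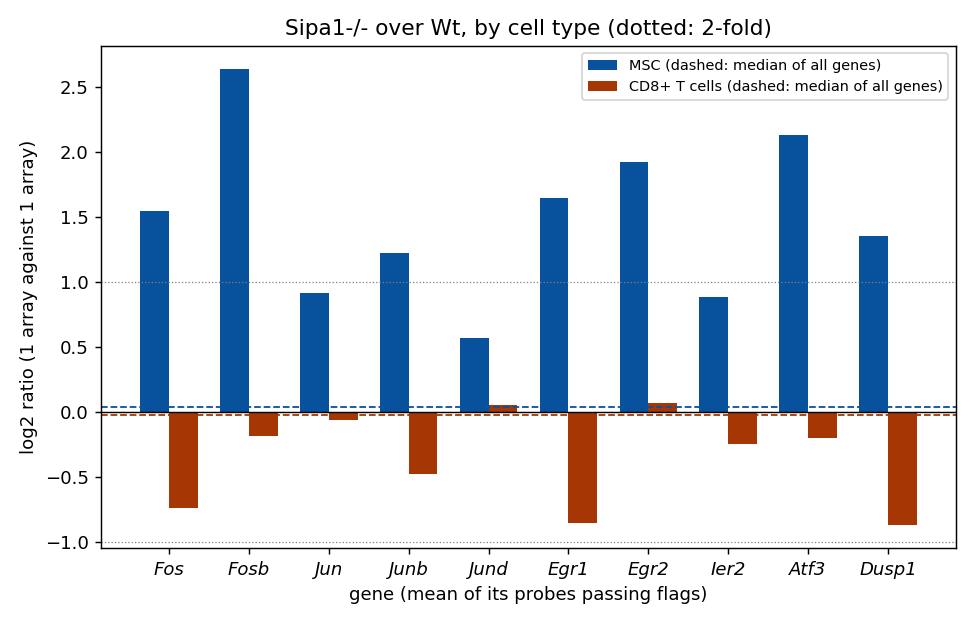
Log2 ratio of *Sipa1*-/- over Wt (y axis) for the 10 members, in MSCs (blue) and CD8+ T cells (brown), each 1 array against 1 array, with the median of all genes dashed and 2-fold dotted. All 10 MSC bars are above 0 and 7 are past 2-fold, while 8 CD8+ T bars are below 0 and none is past 2-fold. The sign of the *Jun*, *Jund*, *Egr2* and *Fosb* bars in CD8+ T cells changed with the processing.

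Set side by side, 8 of the 10 members were higher in *Sipa1*-/- MSCs and lower in *Sipa1*-/- CD8+ T cells, a combination shown by 20.2% of the 13781 genes measured in both. The 8 include *Jun* (-0.06) and *Fosb* (-0.18), whose sign in CD8+ T cells changed with the processing. The MSC ratio minus the CD8+ T ratio ranged from 0.52 for *Jund* to 2.82 for *Fosb*. It was at least 2.22 for *Dusp1*, *Fos*, *Atf3*, *Egr1* and *Fosb*. The *Fosb* value sets the mean of 2 probes in MSCs against 1 probe in CD8+ T cells. Under normexp, and where its dim probe was counted despite its flag, *Fosb* fell behind *Dusp1*, *Fos*, *Atf3* and *Egr1*. The difference between cell types was not tested.

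The third comparison sets MSCs against CD8+ T cells of the same genotype. It shares its arrays with the comparisons above, so its values restate the same levels from the other side. In Wt tumors 5 members were higher in MSCs and 5 in CD8+ T cells, with a median log2 ratio of 0.11 against -0.06 over all genes. Past 2-fold were *Fosb* (2.55-fold) and *Egr1* (2.46-fold), higher in MSCs, and *Egr2*, 2.08-fold higher in CD8+ T cells. Of 14225 genes, 17.3% were past 2-fold towards MSCs and 12.8% towards CD8+ T cells, and 46.6% had a ratio above 0. In *Sipa1*-/- tumors all 10 members were higher in MSCs, 6 of them at least 2-fold, with a median of 1.76 against -0.18 over all genes. Of 14301 genes there, 21.9% were past 2-fold towards MSCs and 18.7% towards CD8+ T cells, and 42.9% had a ratio above 0. *Egr1* differed most, 13.8-fold, except where the brightest probe stood for *Fosb*, followed by *Fosb* with 10.6-fold as the mean of its probes, which gave 17.2-fold and 6.47-fold. *Atf3* followed with 6.58-fold and *Fos* with 5.80-fold. The *Jun* paralogs *Junb* and *Jund*, *Egr2* and *Ier2* stayed between 1.55-fold and 1.73-fold. All 4 passed 2-fold with the series matrix values, where 30.5% of all genes were past it towards MSCs. *Junb* and *Jund* also passed it under quantile normalization, where 21.3% of all genes did.

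Markers of other cells differed between the sorts as well. In Wt tumors 10 of 10 B-lineage markers were at least 2-fold higher in MSCs, with a median of 4.31, and so were 5 of 5 measured erythroid markers, with a median of 6.28. In *Sipa1*-/- tumors the 5 measured erythroid markers had a median of 7.30, and 8 of 9 granulocyte markers were at least 2-fold higher in MSCs, with a median of 1.55. Erythroid markers summed to 390 and 410 on the Wt and *Sipa1*-/- MSC arrays, far above their sums on the CD8+ T arrays. Macrophage markers went the other way. In Wt tumors 8 of 9 were at least 2-fold lower in MSCs, with a median of -1.92, and in *Sipa1*-/- tumors 6 of 9, with a median of -1.12. The part of all these cells in the differences of the members was not tested.

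**Figure D3:**
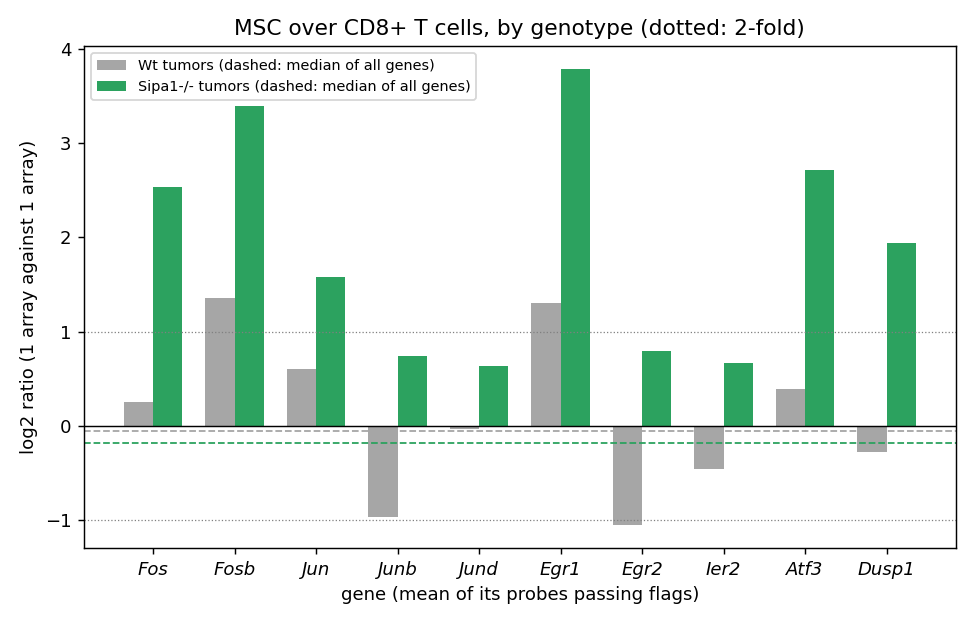
Log2 ratio of MSCs over CD8+ T cells (y axis) for the 10 members in Wt (gray) and *Sipa1*-/- tumors (green), each 1 array against 1 array, with the median of all genes dashed and 2-fold dotted. Gray bars fall on both sides of 0, 5 and 5, and all 10 green bars are above 0. The gray *Jund* bar, at -0.04, changed sign with quantile normalization, with the series matrix values and when flags were not asked of both arrays, and the gray *Dusp1* bar with the series matrix values.

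Other genes of the same response were taken from lists chosen by function. Of 13 other AP-1 and bZIP genes measured in MSCs, 8 were at least 2-fold higher in *Sipa1*-/- cells (61.5%, beside 19.3% of all genes) and 0 lower (beside 11.3%), with a median of 1.32. *Fosl1*, a further *Fos* paralog, read -3.36 on the Wt and -1.03 on the *Sipa1*-/- MSC array, 5.05-fold. *Jdp2*, a *Jun* dimerization partner, had a ratio of 1.64. *Batf*, the AP-1 factor of effector lymphocytes, was lowest with -0.79, followed by *Mafk* with -0.22 and *Atf2* with -0.19. Between the CD8+ T arrays 1 of these 13 genes was at least 2-fold higher, *Batf2* with 1.07, and 2 were lower, *Maff* with -1.42 and *Fosl1* with -1.35, where 2.66% and 1.4% of all genes were. *Batf* read 3.26 and 3.25 on the CD8+ T arrays and was level between the genotypes.

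Of 37 other early response genes measured in MSCs, 19 were at least 2-fold higher, 51.4% beside 19.3% of all genes, and 0 were lower, beside 11.3%, with a median of 1.02. The highest were *Egr4* with 3.18, the transcriptional repressor *Bhlhe40* with 2.13 and *Ier3* with 1.88. *Myc* with -0.43, *Csrnp1* with -0.39 and *Arc* with -0.36 were lowest. These were the 3 ratios below 0, and the other 34 were above it. In CD8+ T cells 0 of 36 were at least 2-fold higher and 2 lower, *Ptgs2*, the inducible cyclooxygenase, with -2.15 and *Gadd45a* with -1.04 (median -0.27), beside 2.66% and 1.4% of all genes. *Nr4a2*, an orphan nuclear receptor induced by the T-cell receptor, was the highest there with 0.63.

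Feedback inhibitors of MAP kinase signaling were near the background in MSCs in the shares past 2-fold. Their median ratio was higher, 0.76 against 0.04 over all genes, with 8 of 13 above 0, beside 51.8% of all genes. Of 13 measured, 3 (23.1%, beside 19.3% of all genes) were at least 2-fold higher (*Dusp4* with 1.46, *Dusp10* with 1.14 and *Dusp14* with 1.00) and 2 were lower, beside 11.3% of all genes. *Dusp2*, a phosphatase of activated leukocytes, read 4.21 on the Wt and 0.81 on the *Sipa1*-/- MSC array, 10.5-fold lower, and 5.49 and 5.59 on the CD8+ T arrays. *Dusp6*, the phosphatase specific for ERK, read 2.91 and 1.16 in MSCs. Both were lower together with the B-lineage markers, and whether they share a source was not tested. The CD8+ T arrays had 1 of 13 past 2-fold, *Spry1*, higher with 1.03, beside 2.66% of all genes.

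The kinases and factors that act upstream of the members formed a further list. Of 29 measured in MSCs, 0 were at least 2-fold higher, beside 19.3% of all genes, and 1 lower, *Map3k1* with -1.54, beside 11.3%, and the median was -0.04. *Map2k1*, which encodes the ERK kinase MEK1, had the largest ratio with 0.60, followed by *Rps6ka3* with 0.57 and *Rap1b*, a substrate of the Sipa1 protein, with 0.56. In CD8+ T cells all 29 lay between -0.24 and 0.24. Heat shock genes are induced by protein-damaging stress through a factor of their own. Of 15 measured in MSCs, 2 were at least 2-fold higher in *Sipa1*-/- cells (13.3%, beside 19.3% of all genes) and 0 lower (beside 11.3%). Their median ratio was 0.43, against 0.04 over all genes, and 9 of 15 were above 0, beside 51.8% of all genes. *Bag3* had 1.64 and *Dnajb4* 1.09. *Hspa1b*, the inducible Hsp70, had 0.86, and *Hspd1*, a mitochondrial chaperone, was lowest with -0.84.

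**Figure D4:**
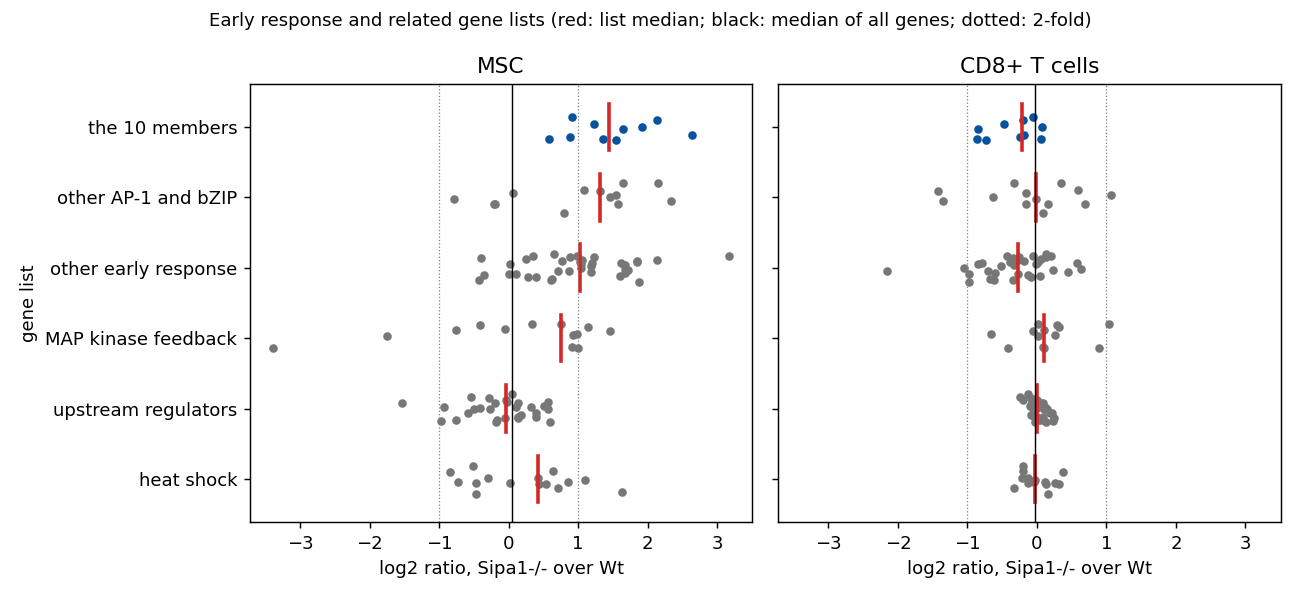
Log2 ratio of *Sipa1*-/- over Wt (x axis) for each measured gene of the 10 members and of 5 related lists (rows), in MSCs (left) and CD8+ T cells (right), with list medians in red, the median of all genes in black and 2-fold dotted. In MSCs the members and the 2 lists of early response and AP-1 genes have medians above 1, and the upstream regulators have a median of -0.04. In CD8+ T cells the 6 list medians lie between -0.27 and 0.10.

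The genes whose pattern was nearest to the median profile of the members were sought among 12908 named genes that passed the flags on all 4 arrays, by the Euclidean distance over the 4 array values after centring each gene. The 10 nearest were *Dhrs9*, *Pfkfb4*, *Syn2*, *Myl2*, *Dhdh*, *Ly96*, *Dnmbp*, *Spsb1*, *Nr1h3* and *Tdrd7*, at distances from 0.12 to 0.24. *Dusp1* was the member nearest to that profile at 0.29, and *Fosb* the farthest at 2.08, so the 10 genes nearest lay closer to it than any member did. With 4 values per gene this is a description. *Pfkfb4* for example read 0.31 and 1.58 on the MSC arrays and 0.13 and -0.16 on the CD8+ T arrays. Some of the nearest genes were dim. *Dhrs9*, the nearest, read -4.36 and -3.11 on the MSC arrays and -4.43 and -5.00 on the CD8+ T arrays. On the CD8+ T arrays the lowest value well above background was -5.56 for Wt and -5.49 for *Sipa1*-/-. *Syn2*, *Myl2* and *Dnmbp* were similarly dim.

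**Figure D5:**
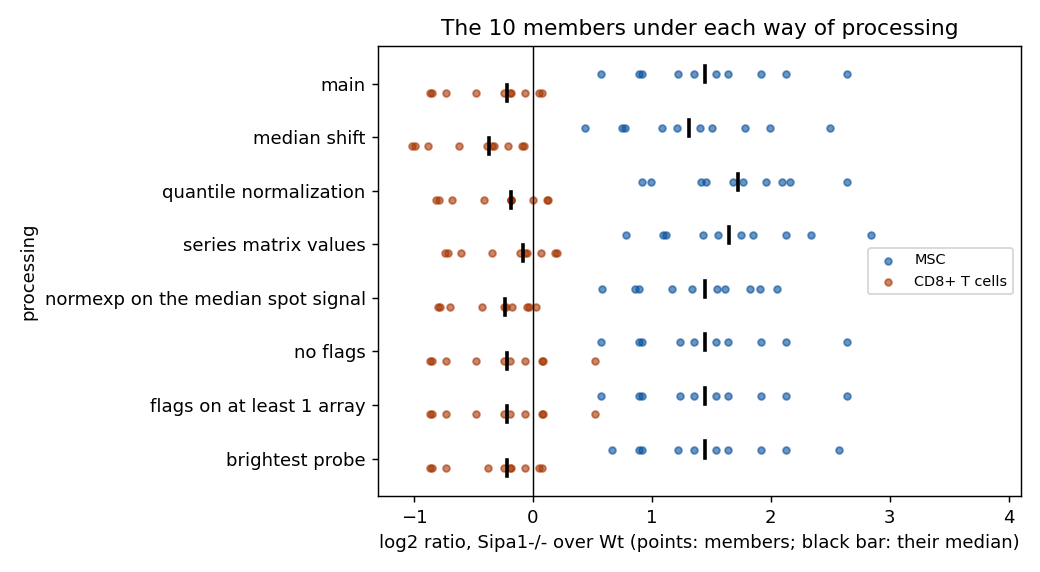
Log2 ratio of *Sipa1*-/- over Wt (x axis) for the 10 members under the main processing and 7 alternatives (rows), in MSCs (blue points) and CD8+ T cells (brown points), with the median of the members as a black bar. All 10 MSC points stay above 0 in every row, the lowest at 0.43 under median shift, and CD8+ T points lie on both sides of 0 in every row but that of median shift.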

How the data were processed

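Total RNA of each sort was labeled with Cy3 and hybridized to 1 Agilent SurePrint G3 mouse array per condition, all 4 on 1 slide. The deposited intensity values were made by the authors with Feature Extraction (12.0.3.1 in the headers, 9.1 in the submitters' processing notes), which subtracts background and does not normalize between arrays. The series matrix deposited by the authors holds these intensities times 1 constant per array. Deposited flags are 0 or 1 per spot.

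Here log2 intensity minus the array's 75th percentile over 59305 non-control spots was used. Spots of a probe, then probes of a gene passing the flags of the methods on both arrays, were averaged. Symbols came from RefSeq (GRCm38.p6). A gene counted as past 2-fold from a log2 ratio of 1. The members, lists and rules were chosen with earlier results of these data known. The text names all members with every probe and, from each list, genes among the 3 highest and 3 lowest ratios per pair of arrays, plus the 10 genes nearest in pattern. Calculations were tested on simulated data. Alternatives were median shift, quantile normalization, series matrix values, normexp with offset 50 on the median spot signal in place of the planned mean, no flags, flags on 1 array and the brightest probe. Computation used limma 3.58.1 in R 4.3.3, and pandas 2.3.3, numpy 2.4.6 and matplotlib 3.10.9 in Python 3.11.15.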

Additional observations from a re-analysis of the deposited data

Results flagged for a closer look

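Several genes had genotype log2 ratios of opposite sign in the MSC and the CD8+ T pair of arrays. For members the limit in both was 0.063, from the scatter of probes printed on many spots. It leaves out the scanner error of a member's single spot, 10% of the signal in the median. The CD8+ T ratios of *Fosb*, *Atf3* and *Ier2*, 0.88-fold, 0.87-fold and 0.85-fold, were close to that error. This contrast of the 2 cell types was not tested, with 1 array per condition. Among the members, the MSC ratio minus the CD8+ T ratio was 2.82 for *Fosb*, 2.49 for *Egr1*, 2.32 for *Atf3*, 2.28 for *Fos*, 2.22 for *Dusp1*, 1.70 for *Junb* and 1.13 for *Ier2*. *Jun* was left out, because its CD8+ T ratio of -0.06255 fell under the limit. The sign of *Fosb* in CD8+ T cells was that of its brighter probe. Among related genes past 2-fold in opposite directions it was 3.68 for *Fosl1*, 3.19 for *Ptgs2* and 2.73 for *Maff*. *Fosl1* read -2.92 on the Wt and -4.27 on the *Sipa1*-/- CD8+ T array, and *Ptgs2* read 1.40 and -0.75.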

How the results depend on the processing

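No paired analysis was possible because there was a single array per condition. Under all 7 alternatives the 10 members stayed above 0 in *Sipa1*-/- over Wt MSCs. Of them 7 to 9 were at least 2-fold higher, beside 11.9% to 24.0% of all genes. What caused the moves was not tested, apart from this: the constants of the series matrix and the median shift move all genes alike. Median shift moved the median of all genes by -0.14 in the MSC pair, -0.15 in the CD8+ T pair, -0.23 in the Wt pair and -0.22 in the *Sipa1*-/- pair, and the series matrix by 0.21, 0.13, 0.45 and 0.53. Relative to all genes, the member median was 1.40 in the MSC pair under both and in the main values, and 1.72 under quantile normalization.

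The member median in MSCs, 1.45, was 1.31 under median shift, 1.72 under quantile normalization and 1.65 with the series matrix. In CD8+ T cells, -0.22 became -0.37 under median shift and -0.087 with the series matrix. Under median shift 1 member, *Dusp1*, was at least 2-fold lower, beside 1.79% of all genes. MSCs over CD8+ T cells in Wt tumors, 0.11, became -0.12 under median shift and 0.56 with the series matrix. Without flags and with flags on 1 array it was 0.20. Under median shift 2 members were at least 2-fold lower, beside 17.6% of all genes. With the series matrix 0 were, beside 7.61%. In *Sipa1*-/- tumors, 1.76 became 1.54, 2.04 and, with 10 members past 2-fold beside 30.5% of all genes, 2.28 under median shift, quantile normalization and the series matrix.

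Counts over all genes depended on the processing too. In MSCs 11.9% were at least 2-fold higher under normexp. In CD8+ T cells the shares higher and lower were 0.753% and 0.683% under normexp, 4.62% and 2.76% without flags, and 4.47% and 2.43% with flags on 1 array. With the series matrix, 7.61% in the Wt pair and 9.49% in the *Sipa1*-/- pair were lower in MSCs, and 24.9% and 30.5% were higher. Of the genes past 2-fold, 63.1% were higher in the MSC pair and 65.5% in the CD8+ T pair, 74.1% and 76.4% with the series matrix, and 52.6% in the CD8+ T pair under median shift and 52.4% under normexp. Between cell types the split was 57.4% in the Wt and 54.0% in the *Sipa1*-/- pair, 76.6% and 76.3% with the series matrix, and 45.5% and 42.9% under median shift. The number of arrays limits the precision, and signal over background limits the dim *Fosb* probe, at 1.6 to 6.3 times its local background.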
